A study of Homo sapiens with 12 samples.

Results

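The 6 genes described here make, recycle or remove the deoxynucleotides of the DNA building pool, and they were followed through a methotrexate time course. They were RRM1, RRM2, RRM2B, SAMHD1, DCK and DGUOK, chosen by name, and each was read by 1 probe set, so all 6 of 6 listed genes were measured among 18377 genes. The cells were HT29, an established human colon cancer line, seeded in plates and grown in F12 medium with fetal bovine serum. The 12 arrays were Affymetrix human gene arrays in 4 groups of 3 replicates that the titles call biological: untreated controls, taken as 0 h, and cells exposed to 70 nM methotrexate for 8, 24 or 48 h. HT29 is a single tumour line with mutant p53, and the design text calls it sensitive to methotrexate.

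Ribonucleotide reductase takes the oxygen from the ribose of ribonucleotides and so makes the precursors of all DNA building blocks. Its large subunit, RRM1, carries the catalytic and the regulatory sites. A small subunit supplies the radical for the reaction: RRM2 in cells in S phase, or RRM2B, which was described as a p53-induced gene and serves repair and mitochondrial DNA outside S phase. SAMHD1 works against the reductase by splitting deoxynucleoside triphosphates into deoxynucleosides and triphosphate, and it limits the replication of retroviruses in resting cells. DCK in the cytosol and DGUOK in mitochondria phosphorylate deoxynucleosides and return them to the pool. Methotrexate blocks dihydrofolate reductase and so cuts the supply of thymidylate and purines, the other inputs of the same pool.

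The arrays read RNA, and protein, enzyme activity and deoxynucleotide pools were not analysed here. Values are log2 ratios to the median of the 3 control arrays, so a value of 0 is the control median and absolute levels are lost. For that reason the epithelial identity of the cells could not be checked by marker level. In comparisons with control, 1 to 3 of 10 colon epithelial markers rose and 0 fell, and 0 of 7 fibroblast and 0 of 6 leukocyte markers were called. Among all genes, 12.1%, 8.69% and 13.0% were called as higher at 8, 24 and 48 h, and 12.0%, 8.02% and 12.3% as lower. With array weights, which let similar arrays count more, 1 epithelial marker was called as lower at 8 h. With these weights, or without 48 h replicate 1 or 3, 1 to 3 fibroblast markers were called as higher at 24 h or 48 h, and their part in the results was not tested. Replicates of a group differed by a root mean square of 0.094 to 0.143 over genes, except that replicate 3 at 48 h was 0.208 and 0.184 from replicates 1 and 2. Each 48 h result that this array decides is given with and without it. No untreated array at 8, 24 or 48 h was analysed here, so methotrexate and time in culture cannot be told apart. In these bulk samples, fewer cells of a type and less RNA per cell cannot be told apart either.

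The 5 members with an entry in the RefSeq promoter table (GRCh38.p14) were searched over the 250 bases before the transcript start, on both strands, because RRM1, RRM2 and DCK moved upward together. The patterns searched were an E2F core, the CCAAT box that the factor NF-Y binds, and the interferon response pattern, which is GAAA and GAAA with any 2 bases between them. The E2F core was counted when the window held TTCCCGC. It was also counted for the form TTCGCGC. Further accepted forms were TTGCCGC and, as the last of the set, TTGGCGC. The patterns and the windows were chosen with the results known. Of 34788 distinct windows in the table, 10.87% held an E2F core, 32.02% a CCAAT box and 3.02% the interferon response pattern. An E2F core can share letters with a CCAAT box, but no matches overlapped in these members' windows. Capitals mark the matches in the stretches below.

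RRM1 held an E2F core at -223 to -217 and a CCAAT box at -28 to -24, counted from the start, in chr11:4094435-4094684 on the plus strand.
RRM1: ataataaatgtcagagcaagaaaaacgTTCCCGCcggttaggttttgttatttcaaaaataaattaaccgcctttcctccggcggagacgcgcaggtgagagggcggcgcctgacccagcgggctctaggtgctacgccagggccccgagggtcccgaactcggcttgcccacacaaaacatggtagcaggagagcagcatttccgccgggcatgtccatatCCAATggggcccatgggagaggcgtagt
RRM2 has 2 starts in the table, and the window of the downstream start held 3 CCAAT boxes and no E2F core, while that of the upstream start held 1 of each. The 3 boxes are shown as stretches of 28 bases of the plus strand, at chr2:10122606-10122633, chr2:10122636-10122663 and chr2:10122663-10122690, because all of them share the 15 letters agCCAATgggaaggg.
RRM2 box 1: caaggcgcagCCAATgggaagggtcgga
RRM2 box 2: catggcacagCCAATgggaagggccggg
RRM2 box 3: ggcaccaaagCCAATgggaagggccggg
DCK held 2 E2F cores, at -192 to -186 and at -88 to -82, and no CCAAT box, in chr4:70993399-70993648 on the plus strand.
DCK: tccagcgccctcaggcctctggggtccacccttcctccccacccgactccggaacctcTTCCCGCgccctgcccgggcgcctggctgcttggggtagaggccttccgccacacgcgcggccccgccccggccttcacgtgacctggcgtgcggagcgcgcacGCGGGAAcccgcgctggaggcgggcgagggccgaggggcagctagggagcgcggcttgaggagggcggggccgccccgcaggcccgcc
SAMHD1, the gene with the deepest fall, held 2 CCAAT boxes and neither an E2F core nor the interferon response pattern, in chr20:36951709-36951958 on the minus strand.
SAMHD1: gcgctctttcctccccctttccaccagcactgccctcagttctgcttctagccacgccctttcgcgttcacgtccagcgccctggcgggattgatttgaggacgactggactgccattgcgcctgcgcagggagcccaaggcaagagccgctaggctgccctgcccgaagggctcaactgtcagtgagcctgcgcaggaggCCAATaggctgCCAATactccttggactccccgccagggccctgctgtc
These matches describe letters in a window, and whether any is a bound site or a cause of these changes was not tested. In the DGUOK window there was 1 CCAAT box at -231 to -227 and no match of the other patterns.

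RRM1, RRM2 and DCK were higher after methotrexate, and SAMHD1 and the other small subunit, RRM2B, were lower. Against control, 3 members rose and 2 fell at 8 h (RRM1, RRM2 and DCK; RRM2B and SAMHD1), where limma called 24.2% of all genes, 12.1% as higher and 12.0% as lower. At 24 h the same 3 members rose and SAMHD1 fell, against 16.7% of all genes called, 8.69% higher and 8.02% lower. At 48 h RRM1 and RRM2 rose and RRM2B, SAMHD1 and DGUOK fell, against 25.3% called, 13.0% higher and 12.3% lower. On the control arrays and the treated arrays the values did not overlap for 4 of 6 members at 8 h, 5 at 24 h and 6 at 48 h, where this was so for 37.9%, 33.0% and 35.7% of all genes.

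Between treated times, 1 member fell from 8 h to 24 h (RRM2) and 0 rose, where 19.4% of all genes were called, 9.99% as higher and 9.40% as lower. From 24 h to 48 h SAMHD1 rose and DCK fell, against 10.1% called, 5.26% higher and 4.86% lower. From 8 h to 48 h SAMHD1 rose and RRM2 and DGUOK fell, against 29.7% called, 15.3% higher and 14.4% lower. The values of the 2 times did not overlap for 3, 4 and 4 of the 6 members, where this was so for 33.3%, 24.0% and 37.8% of all genes. When all 4 conditions were tested together with the moderated F statistic, each of the 6 members passed, as did 38.8% of all genes. The adjusted p of that test ran from 5.83e-06 for RRM2 to 0.0141 for DGUOK. One set of control arrays serves all 3 comparisons with control, so these are not independent.

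**Figure D1:**
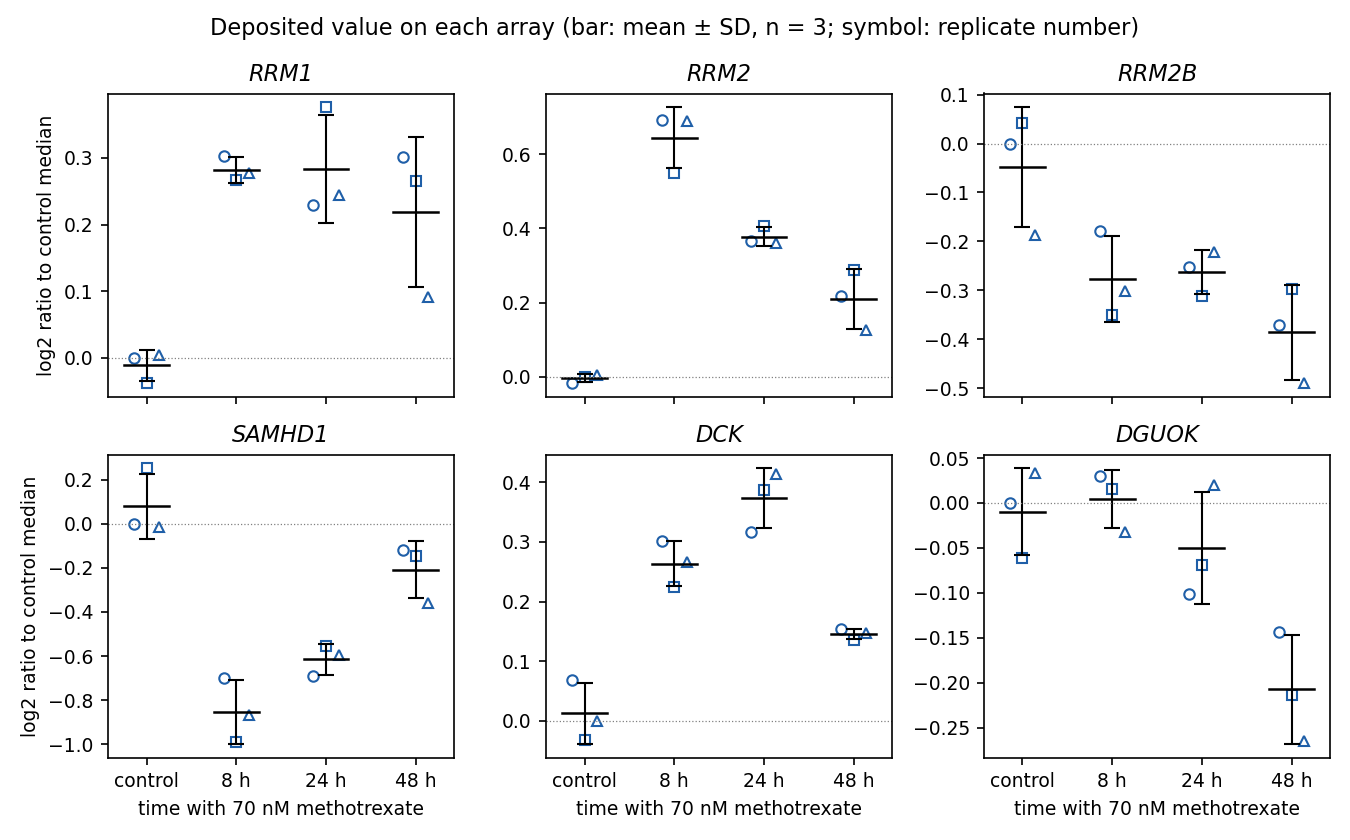
The deposited log2 ratio to the control median (y axis, scaled separately in each panel) is plotted for each array of the control, 8, 24 and 48 h groups (x axis), with the mean ± SD of 3 replicates as a bar and the replicate number as the symbol. RRM2 was highest at 8 h (0.55 to 0.69) and SAMHD1 lowest there (-0.99 to -0.70), while DCK was highest at 24 h (0.32 to 0.41) and DGUOK lowest at 48 h (-0.27 to -0.14).

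RRM2, the S-phase small subunit, showed the largest rise of the 6 genes. On the control arrays its log2 ratio was -0.02, 0.00 and 0.00, and at 8 h it was 0.69, 0.55 and 0.69. At 24 h the 3 values were 0.37, 0.41 and 0.36, and at 48 h 0.22, 0.29 and 0.13. No 2 of the 4 groups overlapped, and the treated groups stepped down from 8 h to 48 h while staying above control. The rise was 1.57-fold at 8 h (log2 difference 0.65, SE 0.05, adjusted p = 2.43e-06), which placed RRM2 156th from the top of 18377 genes. It was 1.30-fold at 24 h (0.38, SE 0.05, adjusted p = 0.000298) and 1.16-fold at 48 h (0.21, SE 0.05, adjusted p = 0.00998). From 8 h to 24 h RRM2 fell by 0.27 (SE 0.05, adjusted p = 0.00328), and from 8 h to 48 h by 0.44 (SE 0.05, adjusted p = 4.01e-05). The step from 24 h to 48 h, -0.17, was not past the threshold (SE 0.05, adjusted p = 0.0709; 95% interval -0.29 to -0.05 before adjustment).

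RRM1, the large subunit, rose less and held its level. Its log2 ratio was 0.00, -0.04 and 0.00 on the control arrays and 0.30, 0.27 and 0.28 at 8 h. It was 0.23, 0.38 and 0.24 at 24 h and 0.30, 0.26 and 0.09 at 48 h. Every treated array lay above every control array, the treated groups overlapped each other, and replicate 3 at 48 h was the lowest treated array. The rise was 1.22-fold at 8 h (0.29, SE 0.06, adjusted p = 0.00274), 1.23-fold at 24 h (0.29, SE 0.06, adjusted p = 0.00411) and 1.17-fold at 48 h (0.23, SE 0.06, adjusted p = 0.0116). Without replicate 1 at 48 h the last call was lost (0.19, adjusted p = 0.0505, the highest over the alternatives, which went down to 1.52e-05). Between treated times RRM1 differed by 0.00 from 8 h to 24 h (95% interval -0.13 to 0.13) and by -0.06 from 24 h to 48 h (-0.19 to 0.06), with adjusted p = 0.995 and adjusted p = 0.646.

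The transcripts of the small and the large subunit did not move by the same amount. The within-array difference RRM2 minus RRM1, in which a constant per probe set drops out, was 0.01 ± 0.03 in control (SD, n = 3), 0.36 ± 0.07 at 8 h, 0.09 ± 0.06 at 24 h and -0.01 ± 0.07 at 48 h. On single arrays it was -0.02 to 0.04 in control and 0.28 to 0.41 at 8 h, and at 48 h it was again within -0.09 to 0.03. The 4 groups differed by an exact permutation test of the F statistic over all 369600 assignments of arrays to groups (two-sided, p = 0.00253, also the adjusted p over the 3 pairs tested here).

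RRM2B, the small subunit used outside S phase, was lower after methotrexate, and its difference from control was larger in size at 48 h than at 8 h or 24 h. Its log2 ratio was 0.00, 0.04 and -0.19 on the control arrays and -0.18, -0.35 and -0.30 at 8 h. At 24 h it was -0.25, -0.31 and -0.22, and at 48 h -0.37, -0.30 and -0.49. Control replicate 3 was as low as replicate 1 at 8 h, so these 2 groups overlapped, and the 24 h and 48 h groups lay below all controls. RRM2B fell by 0.23 at 8 h (SE 0.07, adjusted p = 0.0314) and by 0.34 at 48 h, a 1.26-fold change (SE 0.07, adjusted p = 0.00309). At 24 h the difference of -0.21 was not past the threshold (SE 0.07, adjusted p = 0.0563).

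Both of the weaker RRM2B results changed with single arrays left out, and the 24 h result also with the model. The 8 h call was lost without control replicate 1 (adjusted p = 0.110), control replicate 2 (0.140), 8 h replicate 2 (0.128) or 8 h replicate 3 (0.0958), over alternatives from 0.000470 to 0.140. The 24 h difference passed without control replicate 3 (-0.28, adjusted p = 0.0163), without 8 h replicate 1 (0.0493) or without 48 h replicate 3 (0.0313), over alternatives from 0.00310 to 0.218. With all arrays kept it passed with the replicate block (0.0443), array weights (0.00310), each array centred on its median (0.0497) and a fit of only the 2 groups (0.0486). Treated times did not differ from each other past the threshold, with differences of 0.01, -0.12 and -0.11 for 24 h minus 8 h, 48 h minus 24 h and 48 h minus 8 h (adjusted p = 0.947, 0.363 and 0.314).

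The balance of the transcripts of the 2 small subunits shifted toward RRM2 on each treated array. RRM2 minus RRM2B was -0.02, -0.04 and 0.19 on the control arrays, and 0.87, 0.90 and 0.99 at 8 h. It was 0.62, 0.72 and 0.58 at 24 h and 0.59, 0.59 and 0.62 at 48 h. The lowest treated array was thus 0.58, against a highest control of 0.19. The 4 groups differed by the exact permutation test (two-sided, p = 0.00026, adjusted p = 0.00039 over the 3 pairs).

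**Figure D2:**
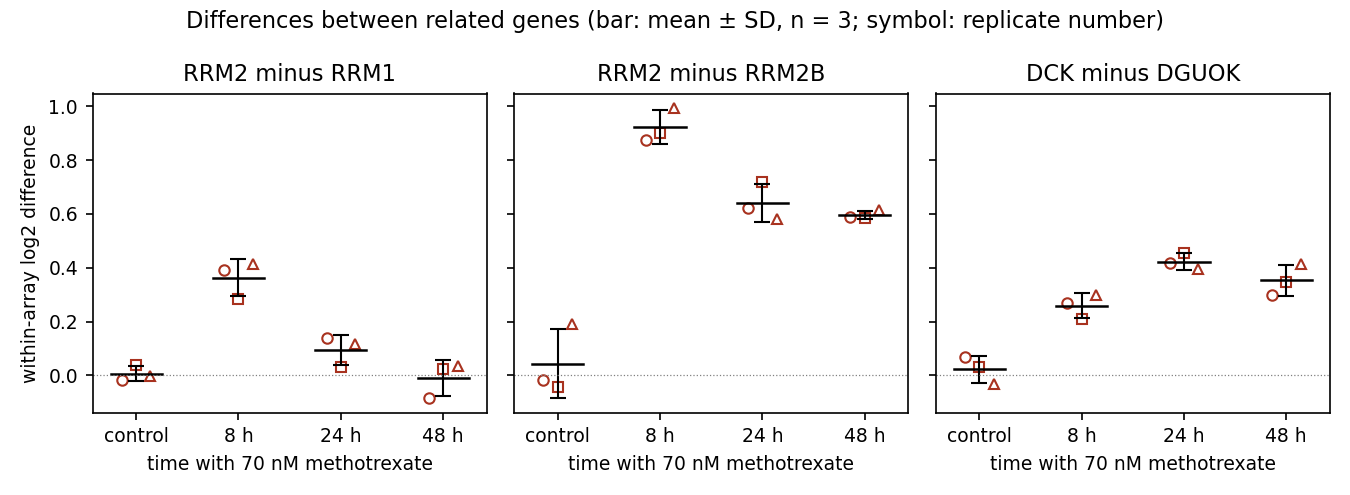
The within-array log2 difference between related genes (y axis) is plotted for each array in the control, 8, 24 and 48 h groups (x axis), with the mean ± SD of 3 replicates as a bar and the replicate number as the symbol. RRM2 minus RRM1 was back at -0.01 by 48 h, whereas RRM2 minus RRM2B (0.60) and DCK minus DGUOK (0.35) were still above their control means of 0.04 and 0.02.

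SAMHD1, the triphosphohydrolase, fell the most and came part of the way back. Its log2 ratio was 0.00, 0.25 and -0.01 on the control arrays and -0.70, -0.99 and -0.87 at 8 h. At 24 h it was -0.69, -0.55 and -0.60, and at 48 h -0.12, -0.15 and -0.36. No 2 groups overlapped, and replicate 3 was the lowest of the 48 h arrays. The fall was 1.91-fold at 8 h (log2 difference -0.93, SE 0.09, adjusted p = 9.50e-06), the 126th lowest of 18377 genes. It was 1.62-fold at 24 h (-0.69, SE 0.09, adjusted p = 0.000167) and 1.22-fold at 48 h (-0.29, SE 0.09, adjusted p = 0.0345).

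SAMHD1 rose between treated times, by 0.65 from 8 h to 48 h (SE 0.09, adjusted p = 0.000116) and by 0.41 from 24 h to 48 h (SE 0.09, adjusted p = 0.0133). The step from 8 h to 24 h, 0.24, was not past the threshold (SE 0.09, adjusted p = 0.0922, over alternatives from 0.0144 to 0.328), and it passed without 8 h replicate 1 (0.0384) or 48 h replicate 3 (0.0490). The 48 h call against control was lost without control replicate 2 (-0.20, adjusted p = 0.163) or without 48 h replicate 3 (-0.21, adjusted p = 0.120), over alternatives from 0.00150 to 0.163. The step from 24 h to 48 h was lost without 24 h replicate 1 (0.0599), 48 h replicate 1 (0.0513) or 48 h replicate 2 (0.0503), over alternatives down to 6.62e-05.

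DCK, which phosphorylates deoxycytidine and also deoxyadenosine and deoxyguanosine, rose to a peak at 24 h. Its log2 ratio was 0.07, -0.03 and 0.00 on the control arrays and 0.30, 0.22 and 0.27 at 8 h. It was 0.32, 0.39 and 0.41 at 24 h and 0.15, 0.14 and 0.15 at 48 h. No 2 groups overlapped, and the 48 h arrays lay between control and 8 h. The rise was 1.19-fold at 8 h (0.25, SE 0.05, adjusted p = 0.00144) and 1.28-fold at 24 h (0.36, SE 0.05, adjusted p = 0.000142). From 24 h to 48 h DCK fell by 0.23 (SE 0.05, adjusted p = 0.00781). At 48 h the difference from control, 0.13, was not past the threshold (SE 0.05, adjusted p = 0.0527), and it passed without control replicate 1 (0.0419, over alternatives from 0.00555 to 0.188). The 24 h and 8 h levels (0.11, adjusted p = 0.136) and the 48 h and 8 h levels (-0.12, adjusted p = 0.0767) did not differ past the threshold.

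DGUOK, the mitochondrial kinase, showed no early change and a late fall. Its log2 ratio was 0.00, -0.06 and 0.03 on the control arrays, 0.03, 0.02 and -0.03 at 8 h, and -0.10, -0.07 and 0.02 at 24 h. At 48 h it was -0.14, -0.21 and -0.27, below all 9 other arrays. The difference from control was 0.01 at 8 h (95% interval -0.10 to 0.12, adjusted p = 0.898) and -0.04 at 24 h (-0.15 to 0.07, adjusted p = 0.696). At 48 h DGUOK fell by 0.20, a 1.15-fold change (SE 0.05, adjusted p = 0.0112), and it fell by 0.21 from 8 h to 48 h (SE 0.05, adjusted p = 0.00590). The step from 24 h to 48 h, -0.16, was not past the threshold (SE 0.05, adjusted p = 0.0732).

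The transcripts of the cytosolic and the mitochondrial kinase thus parted. DCK minus DGUOK within an array was 0.07, 0.03 and -0.03 in control, 0.27, 0.21 and 0.30 at 8 h, 0.42, 0.46 and 0.39 at 24 h, and 0.30, 0.35 and 0.41 at 48 h. All 9 treated arrays lay above the 3 controls. The exact permutation test gave p = 0.00026 (two-sided, adjusted p = 0.00039 over the 3 pairs).

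**Figure D3:**
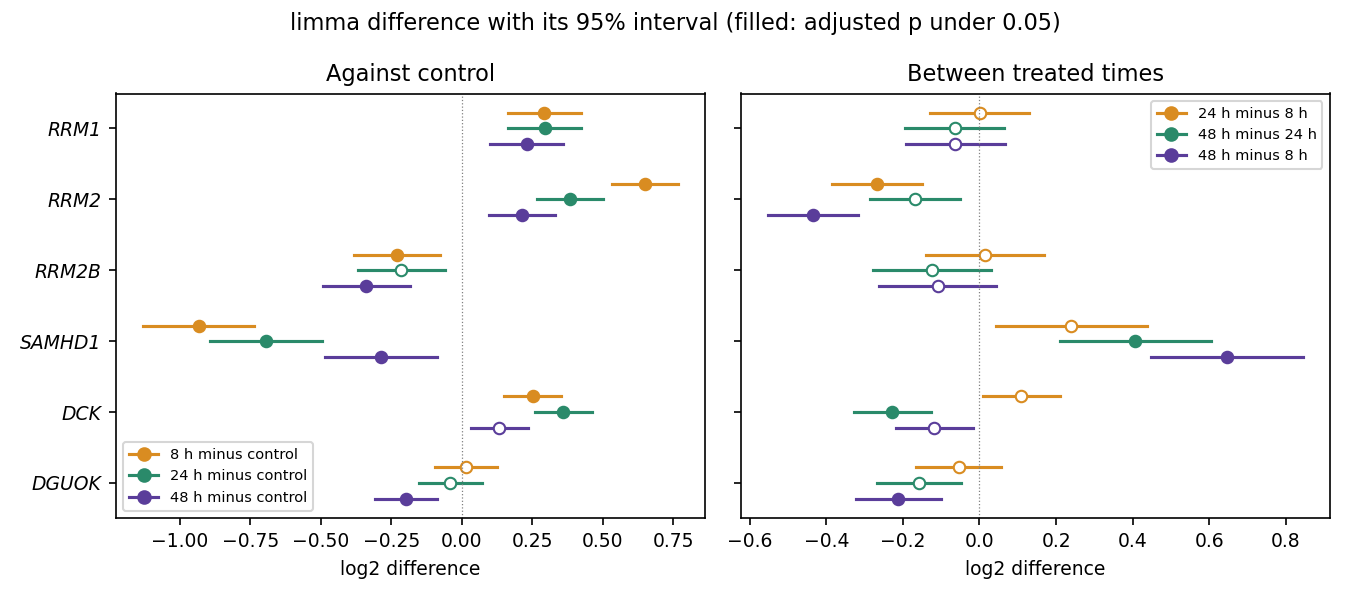
The limma log2 difference (x axis) of each of the 6 genes (y axis) is shown as a point with its 95% interval, against control on the left and between treated times on the right, and filled points have an adjusted p under 0.05. The intervals of RRM1, RRM2 and DCK against control lie above 0 and those of RRM2B and SAMHD1 below it at all 3 times, although RRM2B at 24 h and DCK at 48 h did not pass after adjustment.

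In order of level, RRM2 ran control, 48 h, 24 h, 8 h from low to high, and the neighbours 48 h and 24 h did not differ past the threshold. SAMHD1 ran 8 h, 24 h, 48 h, control, the mirror of that order, and the neighbours 8 h and 24 h did not differ past it. RRM1 and DCK both ran control, 48 h, 8 h, 24 h. For RRM1 only the neighbours control and 48 h differed, and for DCK no neighbours did, although its ends did. RRM2B ran 48 h, 8 h, 24 h, control with no neighbours that differed, and DGUOK 48 h, 24 h, control, 8 h, likewise. Over the 12 arrays, which fall into 4 groups, the Pearson correlation was 0.80 between RRM1 and RRM2, 0.81 between RRM1 and DCK, and -0.89 between RRM2 and SAMHD1. It was -0.37 between RRM2 and RRM2B and 0.14 between DCK and DGUOK. These coefficients describe arrays that share their groups and their processing.

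Other genes of the deoxynucleotide pathway rose more often than they fell. Of 14 measured genes of supply and salvage, 6 rose and 1 fell at 8 h, 7 rose and 2 fell at 24 h, and 7 rose and 1 fell at 48 h. The list medians were 0.09, 0.15 and 0.16, against 0.02, 0.02 and 0.01 for all genes. Among all genes, 12.1%, 8.69% and 13.0% were called as higher at the 3 times, and 12.0%, 8.02% and 12.3% as lower. The same shares stand beside the counts against control of each list below. The count that fell at 8 h was 2 without control replicate 3 or 48 h replicate 3. Thymidylate synthase, TYMS, rose by 0.70 (SE 0.05) at 8 h, 0.68 at 24 h and 0.72 at 48 h. Thymidine kinase TK1, the cytosolic salvage enzyme for thymidine, rose by 0.42, 0.66 and 0.59 (SE 0.07). DUT, which removes dUTP, rose by 0.33 at 8 h (SE 0.07, adjusted p = 0.00500) and differed by 0.07 at 24 h and 0.04 at 48 h (adjusted p = 0.617 and 0.784).

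Among the partners of the salvage kinases, the nucleoside carrier SLC29A1 rose by 0.85 at 8 h (SE 0.06), 0.31 at 24 h and 0.36 at 48 h. Cytidine deaminase, CDA, which turns deoxycytidine into deoxyuridine and so removes a substrate of DCK, rose by 0.82 at 24 h and by 1.76, 3.39-fold, at 48 h (SE 0.08, adjusted p = 7.97e-09). TK2, the mitochondrial thymidine kinase and partner of DGUOK in that compartment, fell by 0.63 at 8 h (SE 0.06, adjusted p = 1.07e-05) and by 0.26 at 24 h (adjusted p = 0.0107). DCTD, the dCMP deaminase, fell by 0.17 at 24 h (SE 0.05, adjusted p = 0.0269) and by 0.31 at 48 h (adjusted p = 0.000313). The 24 h calls of TK2 and DCTD were lost without control replicate 1 (adjusted p = 0.0538 and 0.120) or 24 h replicate 1 (0.0552 and 0.108), and that of DCTD also without control replicate 2 (0.0618) or 24 h replicate 3 (0.0879). In the fit of only the 2 groups the 24 h call of DCTD was lost as well (adjusted p = 0.0556). Over all alternatives the adjusted p ran from 0.000784 to 0.0552 for TK2 and from 0.00289 to 0.120 for DCTD.

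SAMHD1 is 1 of several enzymes that degrade nucleotides or clean the pool, and 8 others were measured. Of these, 3 rose and 1 fell at 8 h and at 24 h, and 2 rose and 2 fell at 48 h, with medians of 0.10, 0.11 and -0.09. DCTPP1, a dCTP pyrophosphatase, rose by 0.67 (SE 0.06), 0.35 and 0.23 at the 3 times, and ITPA, which removes inosine triphosphates, by 0.42 (SE 0.05), 0.23 and 0.41. The nucleotidase NT5C2 fell by 0.39 (SE 0.05), 0.42 and 0.23, and the surface nucleotidase NT5E fell by 0.45 at 48 h (SE 0.07). The count of these enzymes that fell was 2 at 8 h without 8 h replicate 3, and 2 at 24 h without control replicate 3, 24 h replicate 2 or 48 h replicate 3. It was also 2 at 24 h with the replicate block, and with array weights it was 3, 2 and 4 at 8, 24 and 48 h.

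The reductase is rearmed after each cycle by thioredoxin or glutaredoxin. The list set beside it held TXN, TXNRD1, TXN2, TXNRD2, GLRX, GLRX2, GSR and PRDX1. It is broader than the donors themselves, since it includes mitochondrial forms (TXN2, TXNRD2, GLRX2) and the peroxidase PRDX1. TXNRD2 (0.31), GLRX2 (0.26) and PRDX1 (0.20) were among the genes that rose at 8 h. Of 8 measured, 6 rose and 1 fell at 8 h, 1 rose and 0 fell at 24 h, and 0 rose and 2 fell at 48 h, with medians of 0.28, 0.10 and -0.06. Limma called 24.2%, 16.7% and 25.3% of all genes in either direction at these times. The share of the listed genes called at 24 h and 48 h did not exceed that of all genes. Without 48 h replicate 3, with array weights, or in the fit of only the 2 groups, the count that rose at 24 h was 2. Thioredoxin, TXN, rose by 0.52 at 8 h (SE 0.09, adjusted p = 0.00132) and its reductase TXNRD1 by 0.44 at 8 h and 0.34 at 24 h (SE 0.06). Glutaredoxin, GLRX, fell by 0.74 at 8 h (SE 0.08, adjusted p = 2.26e-05). At 48 h TXN fell by 0.33 (SE 0.09, adjusted p = 0.0219) and glutathione reductase, GSR, by 0.27 (SE 0.06). GSR had risen by 0.305 at 8 h. The TXN call at 48 h was lost without control replicate 3 (-0.28, adjusted p = 0.0826) or 48 h replicate 3 (-0.20, adjusted p = 0.0542), over alternatives from 0.00861 to 0.0826. It was also lost in the fit of only the 2 groups (adjusted p = 0.0692).

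Of 15 regulators of the subunits and of SAMHD1, 8 rose and 0 fell at 8 h, 6 rose and 1 fell at 24 h, and 5 rose and 1 fell at 48 h, with medians of 0.24, 0.06 and 0.16. E2F1, a transcription factor of the G1/S programme that includes RRM1 and RRM2, rose by 0.50 at 8 h (SE 0.05), 0.65 at 24 h and 0.67 at 48 h. E2F2 rose by 0.40 at 8 h, 0.62 at 24 h and 0.60 at 48 h (SE 0.07). From 8 h to 48 h E2F1 rose by 0.17 (SE 0.05, adjusted p = 0.0351), while RRM2 fell by 0.44. This E2F1 difference between treated times was not recomputed under the alternatives. Whether E2F1 acts on RRM2 in these cells was not tested. CDK2, which with cyclin A phosphorylates SAMHD1, rose by 0.43 at 8 h (SE 0.04), 0.42 at 24 h and 0.43 at 48 h.

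CCNF, the cyclin F that marks RRM2 for destruction in G2, rose by 0.24 at 8 h (SE 0.07, adjusted p = 0.0318) and differed by -0.03 at 24 h and -0.10 at 48 h (adjusted p = 0.875 and 0.382). The 8 h call was lost without control replicate 1 or 3 or 8 h replicate 1 or 2 (adjusted p = 0.0912 to 0.123), and the lowest over the alternatives was 0.0174. With array weights CCNF was called as lower at 48 h (-0.22, adjusted p = 0.00311). CDC20, an activator of the anaphase-promoting complex, fell by 0.38 at 24 h (SE 0.06, adjusted p = 0.000771) and by 0.19 at 48 h (adjusted p = 0.0346), the second of which was lost without control replicate 1 or 2 or 48 h replicate 1 or 2 (adjusted p = 0.0899 to 0.148, over alternatives down to 0.000112). The CDC20 call at 48 h was also lost in the fit of only the 2 groups (adjusted p = 0.0994).

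The S-phase genes that are expressed alongside the reductase also had smaller medians at the later times. All 17 of 17 measured rose at 8 h, 15 rose and 0 fell at 24 h, and 10 rose and 1 fell at 48 h, with medians of 0.60, 0.38 and 0.26. The corresponding RRM2 differences were 0.65, 0.38 and 0.21 and those of RRM1 were 0.29, 0.29 and 0.23. Cyclin E2, CCNE2, rose by 0.97 (SE 0.06) and the polymerase subunit POLE2 by 0.84 (SE 0.09) at 8 h. At 24 h they were up by 0.25 and 0.51, and at 48 h POLE2 was up by 0.40. CCNE2 differed by -0.05 at 48 h (adjusted p = 0.624). CDC6, which loads the replicative helicase, rose by 0.56 at 8 h, 0.74 at 24 h and 0.62 at 48 h. CDC45, part of that helicase, rose by 0.68, 0.64 and 0.47 at these times. POLA1, of the primase complex, fell by 0.35 at 48 h (SE 0.10, adjusted p = 0.0177), a call lost without control replicate 1 (0.0787), control replicate 2 (0.0599) or 48 h replicate 3 (0.0560), over alternatives down to 0.000527.

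SAMHD1 is induced by interferon in many cell types, and the interferon-stimulated genes were lower at each time. All 15 of 15 measured fell at 8, 24 and 48 h, with medians of -1.57, -1.04 and -0.60, and the corresponding SAMHD1 differences were -0.93, -0.69 and -0.29. IRF7, named here after its values were seen, was close to the threshold at 48 h (-0.30, SE 0.10, adjusted p = 0.0483). The differences of IFI44L were -3.34 (SE 0.12), -3.02 and -2.07 at the 3 times, and those of IFIT1, which binds viral RNA, were -2.48 (SE 0.08), -2.02 and -1.58. From 8 h to 24 h 10 of 15 rose and 0 fell, from 24 h to 48 h 12 rose and 0 fell, and from 8 h to 48 h all 15 rose, the last with a median of 0.90, where SAMHD1 rose by 0.65. Among all genes, 9.99%, 5.26% and 15.3% were called as higher in these comparisons, and 9.40%, 4.86% and 14.4% as lower. IFI6, named here after its values were seen, was at -1.27 at 8 h and -1.48 at 24 h. SAMHD1 had a smaller difference than the median of this list at each time. Whether interferon acts on SAMHD1 in these cells was not tested.

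RRM2B was set beside 14 measured p53 targets, which moved both ways. Of these, 3 rose and 5 fell at 8 h, 2 rose and 3 fell at 24 h, and 5 rose and 4 fell at 48 h, with medians of -0.04, 0.02 and 0.07. The count that fell at 24 h was 1 without control replicate 1, control replicate 2 or 24 h replicate 1. One of the 3, GDF15, a stress-induced cytokine named here after its values were seen, was close to the threshold there (-0.13, SE 0.04, adjusted p = 0.0491). SESN2, a stress-induced inhibitor of mTORC1, fell by 1.22 (SE 0.06), 0.78 and 1.30. TP53INP1 fell by 1.32 at 8 h (SE 0.11) and rose by 0.51 at 48 h. TIGAR fell by 0.38 at 24 h (SE 0.10, adjusted p = 0.0177) and by 0.46 at 48 h, and its 24 h call was lost without control replicate 1 (0.0750), control replicate 2 (0.0519) or 24 h replicate 1 (0.0872), over alternatives down to 0.000293. DDB2, a sensor of damaged DNA, rose by 0.24 at 8 h, 0.66 at 24 h (SE 0.06) and 0.63 at 48 h. The death receptor FAS rose by 0.39 at 8 h (SE 0.08), 0.33 at 24 h and 0.38 at 48 h. BAX rose by 0.32 at 8 h (SE 0.06) and 0.21 at 48 h, and its 24 h difference of 0.15 was not past the threshold.

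**Figure D4:**
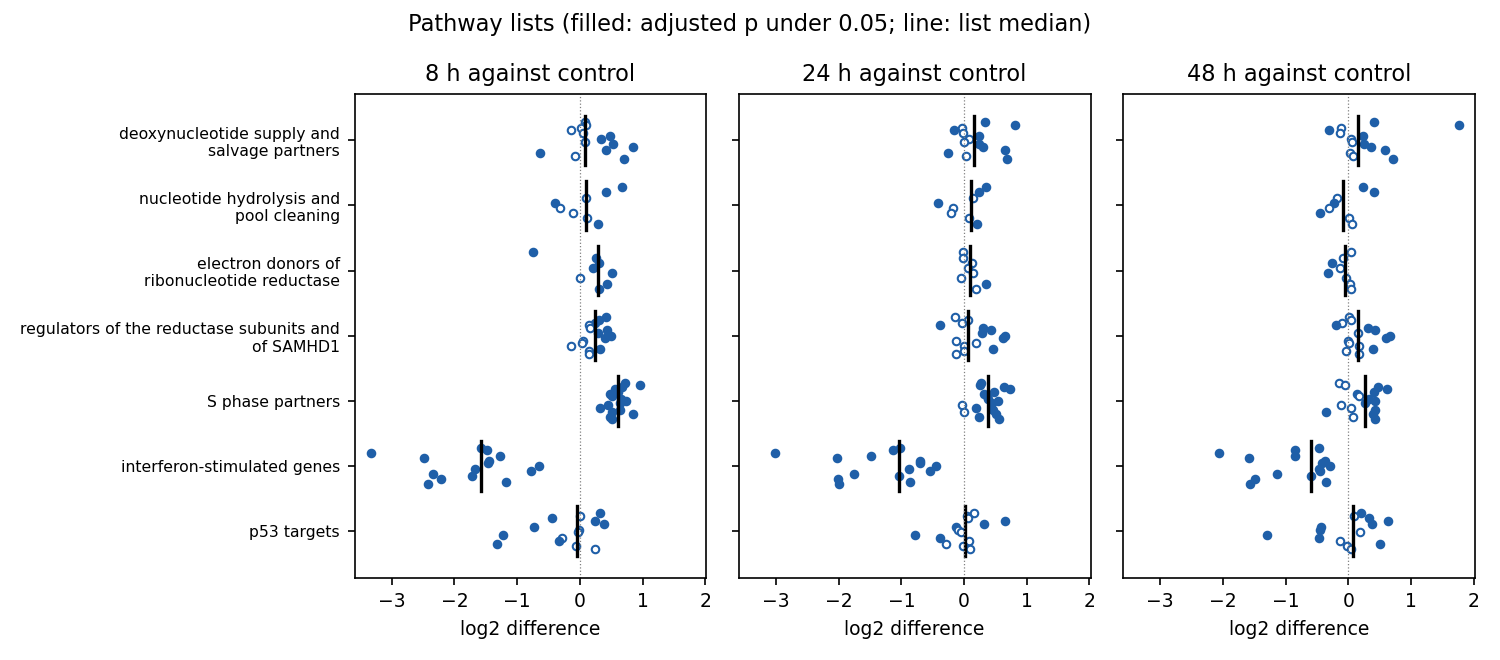
The limma log2 difference against control (x axis) is plotted for each measured gene of 7 pathway lists (y axis) at 8, 24 and 48 h, with filled points for an adjusted p under 0.05 and a line at the list median. The S-phase medians (0.60, 0.38, 0.26) shrank over time and the interferon medians (-1.57, -1.04, -0.60) returned toward 0, while CDA at 48 h (1.76) stands to the right of all other genes of these lists.

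The genes whose profile over the 12 arrays was most like that of each member were ranked by Pearson correlation among the 7121 other genes that differed among the groups. For SAMHD1 they were PARP14 (0.99) and IFIT5 (0.99), both interferon-stimulated, and the sialic acid esterase SIAE (0.98). For RRM2 they were the centromere protein CENPP (0.98), the matrix glycoprotein TNC (0.97) and PARP1 (0.97), and for RRM1 the helicase subunit MCM8 (0.98), the cytokine receptor IL17RB (0.97) and the repressor E2F8 (0.97). For RRM2B they were BBS4 (0.96), the translesion polymerase POLI (0.96) and DENND1B (0.95). For DCK they were FANCE, of the Fanconi core complex (0.96), the abasic site nuclease APEX1 (0.96) and CEACAM5 (0.95), and for DGUOK PDIA5 (0.95), PDRG1 (0.93) and the kinase subunit PRKACB (0.93). These values only rank likeness over arrays that share 4 groups, and the number of arrays limits their precision.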

How the data were processed

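The table holds 1 log2 value per probe set and array, deposited by the authors. The submitters' processing notes name RMA and the build hg19, without versions. In all 28869 probe sets the median of the 3 control arrays is exactly 0, so the deposited values are log2 ratios to the control median. How this centring was done is not stated in the labels. GEO's annotation of the platform gave 19310 probe sets 1 gene, 1752 several and 7807 none, and a gene's single-gene probe sets were averaged. Each member has 1 probe set.

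All 12 arrays entered 1 linear model with a mean per group (limma 3.58.1, R 4.3.3; 8 residual and 4.71 prior degrees of freedom). The tests of 6 differences were two-sided, and calls need an adjusted p under 0.05, by Benjamini-Hochberg across 18377 genes. SE is limma's moderated standard error. The fit was tested on simulated data. Nothing in the labels beyond the word biological says how replicates were separated. P-values then measure only the spread between these samples. Members, lists, pairs and tests were chosen with earlier results of these data known. Genes were named by rule: the members, up to 2 called genes with the largest rise and fall per pathway list and comparison with control, TYMS, DUT, TK1, CCNF and E2F1, and the 3 genes most like each member. CDA and others met this rule. Some genes of the lists are not reported here, and a promoter of RRM2B was not analysed here. Alternatives were the replicate block, array weights, centring of each array, a robust prior, fits of 2 groups, single probe sets and leaving out each array. Figures used Python 3.11.15 and matplotlib 3.10.9.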

Additional observations from a re-analysis of the deposited data

Results flagged for a closer look

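In all, 6 differences between treated times passed the threshold among the members, so the effect against control differed between those times. RRM2 was lower at 24 h than at 8 h (-0.27, adjusted p = 0.00328) and lower at 48 h than at 8 h (-0.44, adjusted p = 4.01e-05), with all 3 arrays below the 3 at 8 h each time. SAMHD1 was higher at 48 h than at 24 h (0.41, adjusted p = 0.0133) and than at 8 h (0.65, adjusted p = 0.000116), again with no overlap. DCK was lower at 48 h than at 24 h (-0.23, adjusted p = 0.00781), and DGUOK was lower at 48 h than at 8 h (-0.21, adjusted p = 0.00590). All adjusted p-values are from limma. No outlier test was run on single members, since each group holds 3 arrays.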

How the results depend on the processing

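No called member difference changed sign under any alternative tried, and 622 of 648 recomputed values stayed on their side of the threshold. Many of these alternatives cannot change the difference itself, so its sign was fixed there and only its p could move. They are the replicate block, the robust prior, fits of 2 groups, single probe sets and leaving out an array of a group not compared. With array weights, DCK at 48 h against control (0.14, adjusted p = 0.00555), SAMHD1 at 24 h against 8 h (0.27, 0.0144), DGUOK at 48 h against 24 h (-0.15, 0.00743), DCK at 48 h against 8 h (-0.11, 0.0216) and RRM2B at 24 h against control (-0.25, 0.00310) passed. Array weights gave 48 h replicate 2 a weight of 6.52 and replicate 3 one of 0.199, and called 6079 genes at 24 h and 7455 at 48 h against control, 5901 at 48 h against 24 h, 8569 at 48 h against 8 h and 11190 by F, against 3070, 4649, 1860, 5464 and 7122. In fits of only the 2 groups, SAMHD1 at 48 h against control was lost (-0.29, adjusted p = 0.0637), SAMHD1 at 24 h against 8 h (0.24) and RRM2B at 24 h (-0.21, 0.0486) passed, and 1022 genes were called at 48 h against 24 h. With each array centred on its median RRM2B at 24 h passed (-0.23, adjusted p = 0.0497).

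Leaving out 1 array at a time gave -0.30 to -0.18 for RRM2B at 8 h, -0.28 to -0.17 at 24 h, 0.19 to 0.29 for RRM1 at 48 h, -0.33 to -0.20 for SAMHD1 at 48 h and 0.11 to 0.16 for DCK at 48 h, all against control. It gave 0.17 to 0.32 for SAMHD1 at 24 h against 8 h and 0.36 to 0.48 at 48 h against 24 h. The F statistic was 4.75 to 12.07 for RRM2B (lost without control replicate 1 or 2, adjusted p = 0.0530 and 0.0609) and 4.42 to 7.69 for DGUOK (lost without 48 h replicate 2 or 3, 0.0567 and 0.0564). The count of genes called at 48 h against 24 h was 1103 to 2149, lowest without 24 h replicate 3 or 1 (1104).

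Same-numbered arrays correlated with r over 0.1 in 11 of 18 pairs (-0.45 to 0.47), and 6 of 12 arrays correlated best with their own number, so the numbers were not taken to pair the arrays. With the replicate block RRM2B at 24 h passed (-0.21, adjusted p = 0.0443), and no other member call changed; the count of nucleotide hydrolysis genes that fell at 24 h went from 1 to 2. Each pair test passed with the block and without each array in turn.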
